A study of Rattus norvegicus with 23 samples.

Results

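Genes for splicing factors and other RNA-binding proteins were followed in hippocampal CA3 tissue of young and aged rats. The members were chosen by gene symbol: every probe set that the array's annotation assigns to 1 gene whose symbol begins with Srsf, Hnrnp, Rbm followed by a digit or x, Tra2, Celf, Elavl, Sf3a, Sf3b or Luc7l. A probe set is a group of short probes that together read 1 transcript region. No measured value entered the rule, but it was chosen with earlier results of these data known. It gave 158 of the 31099 probe sets on the array, for 86 genes. Of these, 122 probe sets in 75 genes were tested, having log2 values of 4 or more on 6 or more of the 23 arrays. The other 36 had group means between 2.19 and 3.85. They include all the probe sets used here for 11 genes: Rbm4, Rbm7, Rbm12, Rbm19, Rbm20, Rbm38, Rbm43, Rbm44, Rbm47, Srsf3 and Srsf7. Among the 122, 120 had a mean of at least 4 in all 3 groups. The rule also took Srsf7-ps4, which is named as a pseudogene of Srsf7. It left out 7 probe sets with several symbols, among them those shared by Hnrnpk and its pseudogene.

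The animals were male Long-Evans rats, 1 array each, with no treatment in any group. Young rats were 6 months old (n = 9). The array labelled young 9 stands among those of the aged unimpaired rats in the series' order, and its label was followed. Without it, 9 members passed between aged impaired and young rats, 1 between aged unimpaired and young, and 3 between the aged groups, in place of the 12, 1 and 4 given here. Between aged impaired and young rats the share of all tested probe sets that passed also fell, from 9.76% to 8.29%. Aged rats were 24 to 26 months old and were scored in the Morris water maze, a task of finding a platform hidden under water. Those whose learning index fell within the range of the young rats were classed as aged unimpaired (n = 6), and those that performed worse as aged impaired (n = 8). CA3 was dissected by hand after testing, so the tissue holds glia and vessels beside pyramidal neurons, and in such bulk tissue fewer cells of a type and less RNA per cell cannot be told apart. Values are log2 expression as deposited, and a log2 difference of 1 is a doubling.

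Most vertebrate genes are transcribed as precursors whose introns are cut out by the spliceosome. The SF3A and SF3B subunits belong to the U2 particle, which recognises the intron's branch point, and LUC7-like proteins work with the U1 particle at the 5′ splice site. Serine and arginine rich (SR) proteins and the related Tra2 proteins bind exons and mostly favour their inclusion, whereas heterogeneous nuclear ribonucleoproteins (hnRNPs) coat nascent RNA and often oppose it. In neurons, CELF and ELAVL (Hu) proteins bind elements rich in U and in A and U, and set alternative splicing, the stability and the translation of synaptic and cytoskeletal messages. Many of these genes make several transcripts themselves, some with retained introns or unproductive exons, so different probe sets of 1 gene can read different products.

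Array medians lay between 3.429 and 3.458 in aged impaired, between 3.412 and 3.425 in aged unimpaired and between 3.388 and 3.418 in young rats, so every aged impaired median was above every young one. With each array centred on the median of its tested probe sets, 13 members in place of 12 passed between those groups, and 10.5% in place of 9.76% of all tested probe sets. The medians above are over all probe sets, so that centring need not remove their offset. Each array's correlation with the rest averaged 0.9845 to 0.99, and 0 pairs of arrays were identical. The neuronal marker Rbfox3 had a mean of 10.67 and the CA3 marker Grik4 9.06. Of the markers of the neighbouring field CA1, 7 of 10 listed were tested, with means from 3.99 to 9.39, and of the dentate gyrus 4 of 9, from 4.22 to 8.95. Of the oligodendrocyte markers 7 of 8 were tested, with means from 8.95 to 13.94. Aged impaired 2 stood apart in tissue scores, with the lowest CA3 score (−0.39) and the highest CA1 (0.98), dentate (0.64) and microglial (0.73) scores, and young 4 had the lowest CA1 score (−1.41). Counts without aged impaired 2 are given beside the results they change. Of the microglial markers, 6 of 7 tested were higher in aged impaired than in young rats, and their score (the mean of centred log2 values) ran from 0.02 to 0.73 in aged impaired, from −0.01 to 0.36 in aged unimpaired and from −0.60 to −0.20 in young rats. Of the astrocyte markers 3 of 9 were higher, of the neuronal markers 3 of 7 lower and of the CA3 markers 3 of 9 lower in aged impaired than in young rats. The part of these marker differences in the results on the splicing genes was not tested.

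The start regions of 3 genes that changed in aged impaired rats are shown first: Rbm3 and Srsf5, which rose, and Elavl4, which fell, from 3 families. Each line gives the 250 bases before and the 50 bases from the annotated start, from RefSeq on build GRCr8. Capitals mark the motifs searched for on both strands.
Rbm3 promoter, chrX:17020655-17020954, + strand: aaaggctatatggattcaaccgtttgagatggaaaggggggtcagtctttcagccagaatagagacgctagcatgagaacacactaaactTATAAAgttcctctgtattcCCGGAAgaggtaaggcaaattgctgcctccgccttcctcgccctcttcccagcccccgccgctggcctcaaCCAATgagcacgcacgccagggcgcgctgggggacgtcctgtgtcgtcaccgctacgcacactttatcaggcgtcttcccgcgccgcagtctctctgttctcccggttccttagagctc
Srsf5 promoter, chr6:106336506-106336805, + strand: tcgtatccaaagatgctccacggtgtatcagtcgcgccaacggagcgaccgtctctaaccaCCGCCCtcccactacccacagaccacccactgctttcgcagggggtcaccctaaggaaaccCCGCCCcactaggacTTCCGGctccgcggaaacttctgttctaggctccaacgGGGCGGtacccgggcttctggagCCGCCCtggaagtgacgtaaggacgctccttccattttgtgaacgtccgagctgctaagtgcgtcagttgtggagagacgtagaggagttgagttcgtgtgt
Elavl4 promoter, chr5:130367614-130367913, - strand: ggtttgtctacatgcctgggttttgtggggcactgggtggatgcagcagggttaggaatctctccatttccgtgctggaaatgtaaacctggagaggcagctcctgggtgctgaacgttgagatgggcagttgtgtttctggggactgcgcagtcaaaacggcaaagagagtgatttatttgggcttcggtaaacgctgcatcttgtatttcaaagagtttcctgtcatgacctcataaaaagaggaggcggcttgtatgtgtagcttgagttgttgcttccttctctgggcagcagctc
The motifs were the GC box (GGGCGG), the CCAAT box (CCAAT), the cAMP response element (TGACGTCA), the ETS core (CCGGAA) and the TATA box (TATAAA), and none overlaps another in these 3 windows. The Rbm3 window holds 1 TATA match, 1 ETS match and 1 CCAAT match, the Srsf5 window holds 4 GC boxes and 1 ETS match, and in the Elavl4 window no letters matched. Of the 75 tested genes, 66 had a promoter in the table. A GC box stood in 62.1% of these against 33.1% of all 33469 promoters, a CCAAT box in 53% against 37.5%, an ETS core in 34.8% against 15%, a TATA box in 10.6% against 14.2% and a cAMP response element in 1.52% against 1.83%. These are letter matches and not measured sites. The sets are also unlike: the 66 are 1 promoter per gene of genes that reached the expression minimum. The 33469 are every promoter of the table, whether or not the gene was expressed here. The part of this in the shares was not tested.

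Between aged impaired and young rats, 12 of the 122 tested probe sets changed, 7 higher and 5 lower, each in a different gene. That is 9.84% of the members, against 9.76% of all 14647 tested probe sets (3.88% higher and 5.88% lower), so the share was that of the array as a whole. The rises were in Rbm5, Rbm3, Sf3b1, Rbm27, Hnrnpdl, Luc7l2 and Srsf5, and the falls in Sf3a1, Srsf10, Elavl4, Rbm10 and Hnrnpab. The median log2 difference of the 122 was −0.0043 against −0.017 over all tested probe sets. An unadjusted p under 0.05 was found for 43 of the 122 members and for 3859 of all 14647. By this looser measure the share of the members was the larger. The test was limma's moderated test on the 3 groups together, two-sided, with Benjamini-Hochberg adjustment over all tested probe sets. The count was 7 without aged impaired 2, without young 3 or without young 7, where 6.94%, 7.64% and 7.86% of all tested probe sets passed. It was 5, and 6.4% of all, with the gap between 2 control rows, described with the pairs, as a covariate.

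**Figure D1:**
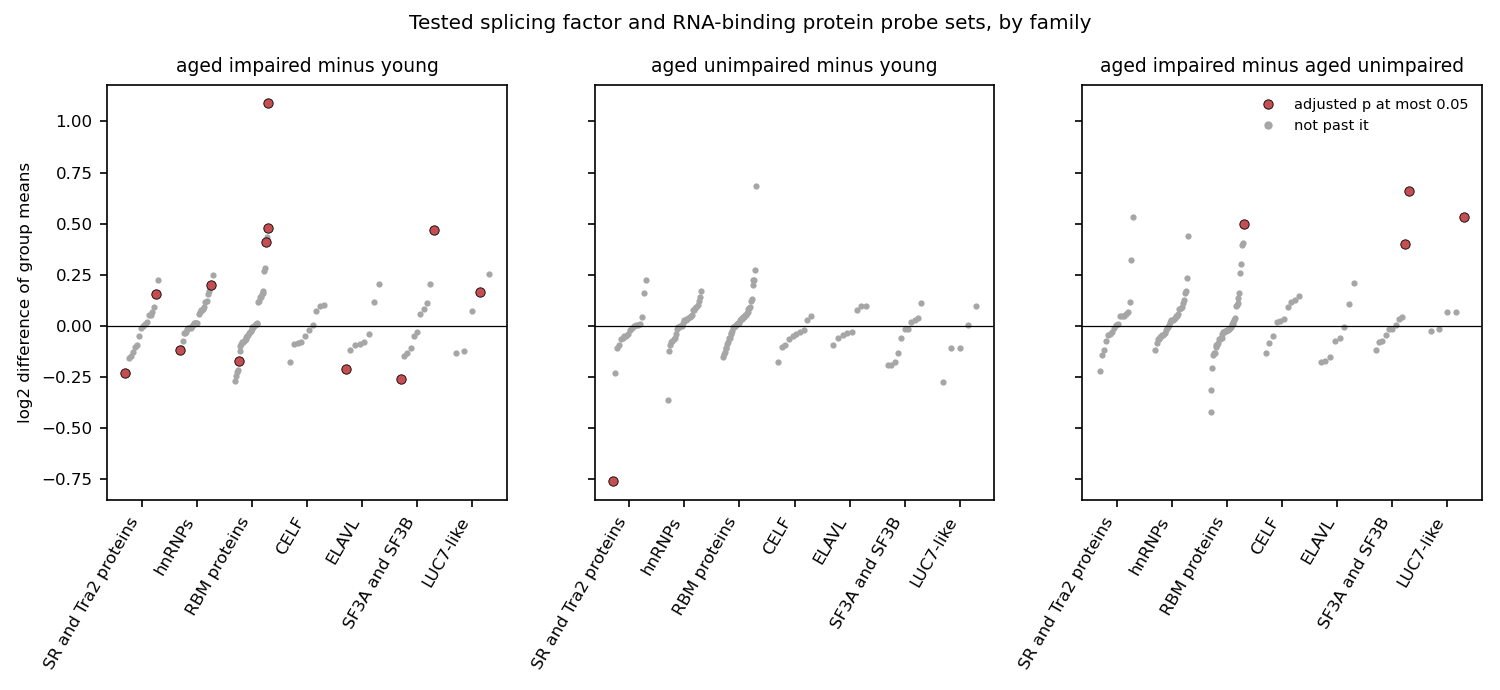
Each point is a tested probe set, placed by family, with its log2 difference between group means on the vertical axis in 3 comparisons. Red points passed an adjusted p of 0.05: 12 between aged impaired and young rats on both sides of 0, 1 (Tra2a) between aged unimpaired and young rats, and 4, all above 0, between the aged groups.

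Among the RBM genes, which are named only for an RNA recognition motif, 40 probe sets in 26 genes were tested and 3 rose and 1 fell in aged impaired rats. Rbm3, a protein induced by cold and by other mild stress, had 1 probe set. It lay between 10.11 and 10.62 (median 10.40) in aged impaired, between 9.91 and 10.37 (median 10.12) in aged unimpaired and between 9.65 and 10.54 (median 9.74) in young rats. Most young rats lay below every aged impaired rat, but the highest young rats lay within the aged impaired range. The log2 difference was 0.48 ± 0.11 (SE), a 1.40-fold higher level (limma adjusted p = 0.0115), and the call held without any 1 array. The aged unimpaired rats lay between, at 0.22 ± 0.12 above young (adjusted p = 0.376) and 0.26 ± 0.13 below aged impaired (adjusted p = 0.335).

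Rbm5, a splicing regulator of genes for apoptosis, was read by 3 tested probe sets that moved unequally. The dim probe set 1398595_at lay between 4.76 and 5.62 (median 5.24) in aged impaired, between 3.92 and 6.01 (median 4.62) in aged unimpaired and between 3.67 and 4.89 (median 4.02) in young rats. Of the 8 aged impaired rats, 6 lay above every young rat, and the aged unimpaired rats spread over both ranges. Its log2 difference between aged impaired and young was 1.09 ± 0.23, or 2.13-fold (adjusted p = 0.00547), and the call held without any 1 array. The bright probe sets of Rbm5 differed by 0.17 (1382749_at, adjusted p = 0.397) and −0.08 (1372251_at, adjusted p = 0.379). The gap between the dim and the brightest probe set of Rbm5 did not pass the test over all pairs, at 0.92 with an adjusted p of 0.113.

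Rbm27, a relative of Rbm26 that also carries a zinc finger, showed the same kind of split. Its probe set 1391848_at lay between 5.63 and 6.18 (median 5.90) in aged impaired, between 4.97 and 5.55 (median 5.47) in aged unimpaired and between 5.09 and 5.68 (median 5.56) in young rats. All 8 aged impaired rats lay above every aged unimpaired rat, and 6 of the 8 above every young rat. The log2 difference from young was 0.41 ± 0.10, or 1.33-fold (adjusted p = 0.0119). With the replicate number as a block, this call of Rbm27 ended (adjusted p = 0.0514). Its brightest probe set, 1389981_at, differed from young by 0.00 ± 0.06 on the log2 scale (adjusted p = 0.977).

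Rbm10, an X-linked splicing regulator related to Rbm5, fell. It lay between 7.92 and 8.23 (median 8.11) in aged impaired, between 8.11 and 8.31 (median 8.21) in aged unimpaired and between 8.14 and 8.53 (median 8.26) in young rats, with 5 aged impaired rats below every young rat. The log2 difference was −0.17 ± 0.05 (adjusted p = 0.0276), and without aged impaired 7, the lowest animal, the adjusted p was 0.0526. The call also ended with no filter on low values and with only these groups fitted. With the control gap the adjusted p was 0.0676, and with the replicate number as a block 0.0892. The other 36 tested RBM probe sets did not pass. They include Rbm8a of the exon junction complex (−0.03, adjusted p = 0.714), Rbmx (0.14, adjusted p = 0.135) and Rbm17, a component that helps select 3′ splice sites (0.00, adjusted p = 0.997, for its brightest probe set). Rbm39, a cofactor of U2AF, had 5 tested probe sets with log2 differences from −0.05 to 0.28, and the largest missed the threshold with an adjusted p of 0.0678.

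Of the 18 tested SR and Tra2 probe sets in 11 genes, 1 rose and 1 fell between aged impaired and young rats. Srsf5, an exon-binding SR protein, lay between 11.16 and 11.39 (median 11.24) in aged impaired, between 11.01 and 11.23 (median 11.18) in aged unimpaired and between 10.95 and 11.25 (median 11.09) in young rats. The groups overlapped, with 3 aged impaired rats above every young rat. It was higher by 0.16 ± 0.05, or 1.11-fold (adjusted p = 0.0366). This call ended without aged impaired 1, 2 or 3 or without young 3, 4, 6, 8 or 9, with an adjusted p of up to 0.0717.

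Srsf10, which represses splicing when it loses its phosphates, fell. Its probe set 1382052_at lay between 5.86 and 6.23 (median 6.14) in aged impaired, between 6.23 and 6.65 (median 6.25) in aged unimpaired and between 6.23 and 6.55 (median 6.31) in young rats, and 5 aged impaired rats lay below every animal of both other groups. The log2 difference from young was −0.23 ± 0.06 (adjusted p = 0.0261), and without aged impaired 2 or 5 the adjusted p reached 0.0507. On 8 of the 23 arrays the value was 6.23 to within 0.001, 3 of them aged impaired, 3 aged unimpaired and 2 young. Such ties stood on 6 or more arrays in 25 of the 122 tested members, and the order of tied animals has no meaning.

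The other SR and Tra2 probe sets did not pass, though some differences were as large as that of Srsf5, with a largest rise of 0.23. Tra2a differed between aged impaired and young rats by −0.15 (1390278_at) and −0.23 (1392758_at). The founding members Srsf1 and Srsf2 differed between aged impaired and young rats by 0.05 and 0.07 in their brightest probe sets (adjusted p = 0.562 and 0.211), Srsf4 by −0.10 (0.128), Srsf6 by −0.16 (0.124), Srsf9 by −0.05 (0.551) and Srsf11 by 0.01 (0.941). Tra2b, the sequence-specific activator best known from neuronal exons, differed by −0.0034 ± 0.048 (adjusted p = 0.975).

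Of the 30 tested hnRNP probe sets in 17 genes, 1 rose and 1 fell between aged impaired and young rats. Hnrnpdl, a relative of hnRNP D, lay between 9.65 and 10.15 (median 9.81) in aged impaired, between 9.61 and 9.76 (median 9.70) in aged unimpaired and between 9.44 and 9.90 (median 9.63) in young rats. It was higher by 0.20 ± 0.06 (adjusted p = 0.0459), and its other probe set, 1371333_at, differed by the same 0.20 with an adjusted p of 0.0872. The call was fragile. It held without aged impaired 6 or 7 or without young 1, 2 or 5, and it ended without any 1 of the other 18 arrays, with an adjusted p of up to 0.0863.

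Hnrnpab, which takes part in the transport of messages in neurons, fell. It lay between 10.33 and 10.55 (median 10.49) in aged impaired, between 10.47 and 10.58 (median 10.52) in aged unimpaired and between 10.48 and 10.69 (median 10.61) in young rats, so the aged unimpaired rats lay within the young range but for 1. The log2 difference was −0.12 ± 0.03, a 1.09-fold lower level (adjusted p = 0.0298). It did not pass without aged impaired 7 or 8 or without young 1, 2 or 7, with an adjusted p of up to 0.0548. In their brightest probe sets, the abundant hnRNPs of the core particle differed less than their error. Hnrnpa1 differed by −0.01 ± 0.05 (adjusted p = 0.888), Hnrnpa2b1 by −0.0022 ± 0.035 (0.978) and Hnrnpc by −0.04 ± 0.05 (0.705). The dimmer probe sets of Hnrnpa1 differed by 0.25 (1375612_at) and 0.07 (1372693_at). Those of Hnrnpa2b1 differed by 0.08 (1395561_at), 0.15 (1373540_at) and 0.19 (1378543_at), and none of these passed.

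In the U2 particle, 11 probe sets for all 9 genes of SF3A and SF3B on the rule were tested, and 1 rose and 1 fell. Sf3b1, the large subunit that clamps the branch point, was read by 2. Probe set 1389840_at lay between 9.17 and 9.75 (median 9.54) in aged impaired, between 8.36 and 9.25 (median 8.91) in aged unimpaired and between 8.58 and 9.33 (median 9.08) in young rats. Of the aged impaired rats, 6 lay above every young rat and 7 above every aged unimpaired rat. It was higher than in young rats by 0.47 ± 0.12, or 1.38-fold (adjusted p = 0.0159), and with the control gap as a covariate the adjusted p was 0.0526. The brighter probe set 1390234_at differed by 0.08 ± 0.03 (adjusted p = 0.12).

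Sf3a1, a scaffold of SF3A, fell by 0.26 ± 0.08 (adjusted p = 0.0493). It lay between 5.63 and 6.18 (median 6.08) in aged impaired, between 5.84 and 6.18 (median 6.18) in aged unimpaired and between 6.18 and 6.68 (median 6.18) in young rats. On 12 of the 23 arrays its value was 6.18 to within 0.001, 5 of them young. The call held without aged impaired 1, 7 or 8, without aged unimpaired 7 or without young 5, and ended without any 1 of the other 18 arrays, with an adjusted p of up to 0.101. The remaining subunits had differences from −0.15 (Sf3a3, adjusted p = 0.188) to 0.11 (Sf3b5, adjusted p = 0.178) in their brightest probe sets.

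Among the LUC7-like genes, 1 of 5 tested probe sets rose. Luc7l2 lay between 9.94 and 10.39 (median 10.10) in aged impaired, between 10.01 and 10.11 (median 10.06) in aged unimpaired and between 9.80 and 10.06 (median 9.96) in young rats. It was higher by 0.16 ± 0.05 (adjusted p = 0.0371), and the call ended without aged impaired 2, 3 or 6 or without young 2, 3, 4, 6, 7 or 9, with an adjusted p of up to 0.076. Luc7l had a difference of −0.14 ± 0.04 that just missed the threshold (adjusted p = 0.0539).

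Of the neuronal Hu proteins, Elavl4 (HuD), which stabilises messages for growth and plasticity of neurites, was the 1 call among 8 tested ELAVL probe sets. It lay between 8.22 and 8.69 (median 8.44) in aged impaired, between 8.49 and 8.85 (median 8.60) in aged unimpaired and between 8.49 and 8.90 (median 8.63) in young rats, and 5 aged impaired rats lay below all animals of both other groups. It fell by 0.21 ± 0.06 on the log2 scale, or 1.16-fold (adjusted p = 0.0406). The call ended without aged impaired 2, 4, 5, 7 or 8 or without young 1, 3, 4, 5, 7 or 8, with an adjusted p of up to 0.0792. Beside this, the score of the neuronal markers was lower in aged impaired than in young rats by 0.10 (exact permutation p = 0.00181, and 0.00996 after Benjamini-Hochberg over 11 measures), and its part in the Elavl4 difference was not tested. Elavl2 (HuB) and Elavl3 (HuC) differed by −0.12 and −0.08 (adjusted p = 0.258 and 0.731), and the ubiquitous Elavl1 (HuR) by 0.20 ± 0.23 (adjusted p = 0.608) in its brightest probe set.

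None of the 10 tested CELF probe sets passed in limma's test, and 2 had an unadjusted p under 0.05. Celf4, a splicing and translation regulator abundant in excitatory neurons, lay between 10.83 and 11.15 (median 11.01) in aged impaired and between 10.94 and 11.14 (median 11.07) in young rats, a difference of −0.05 ± 0.04 (adjusted p = 0.454). Celf2 was read by 4 probe sets with differences from −0.18 (adjusted p = 0.0955) to 0.07 (adjusted p = 0.627).

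**Figure D2:**
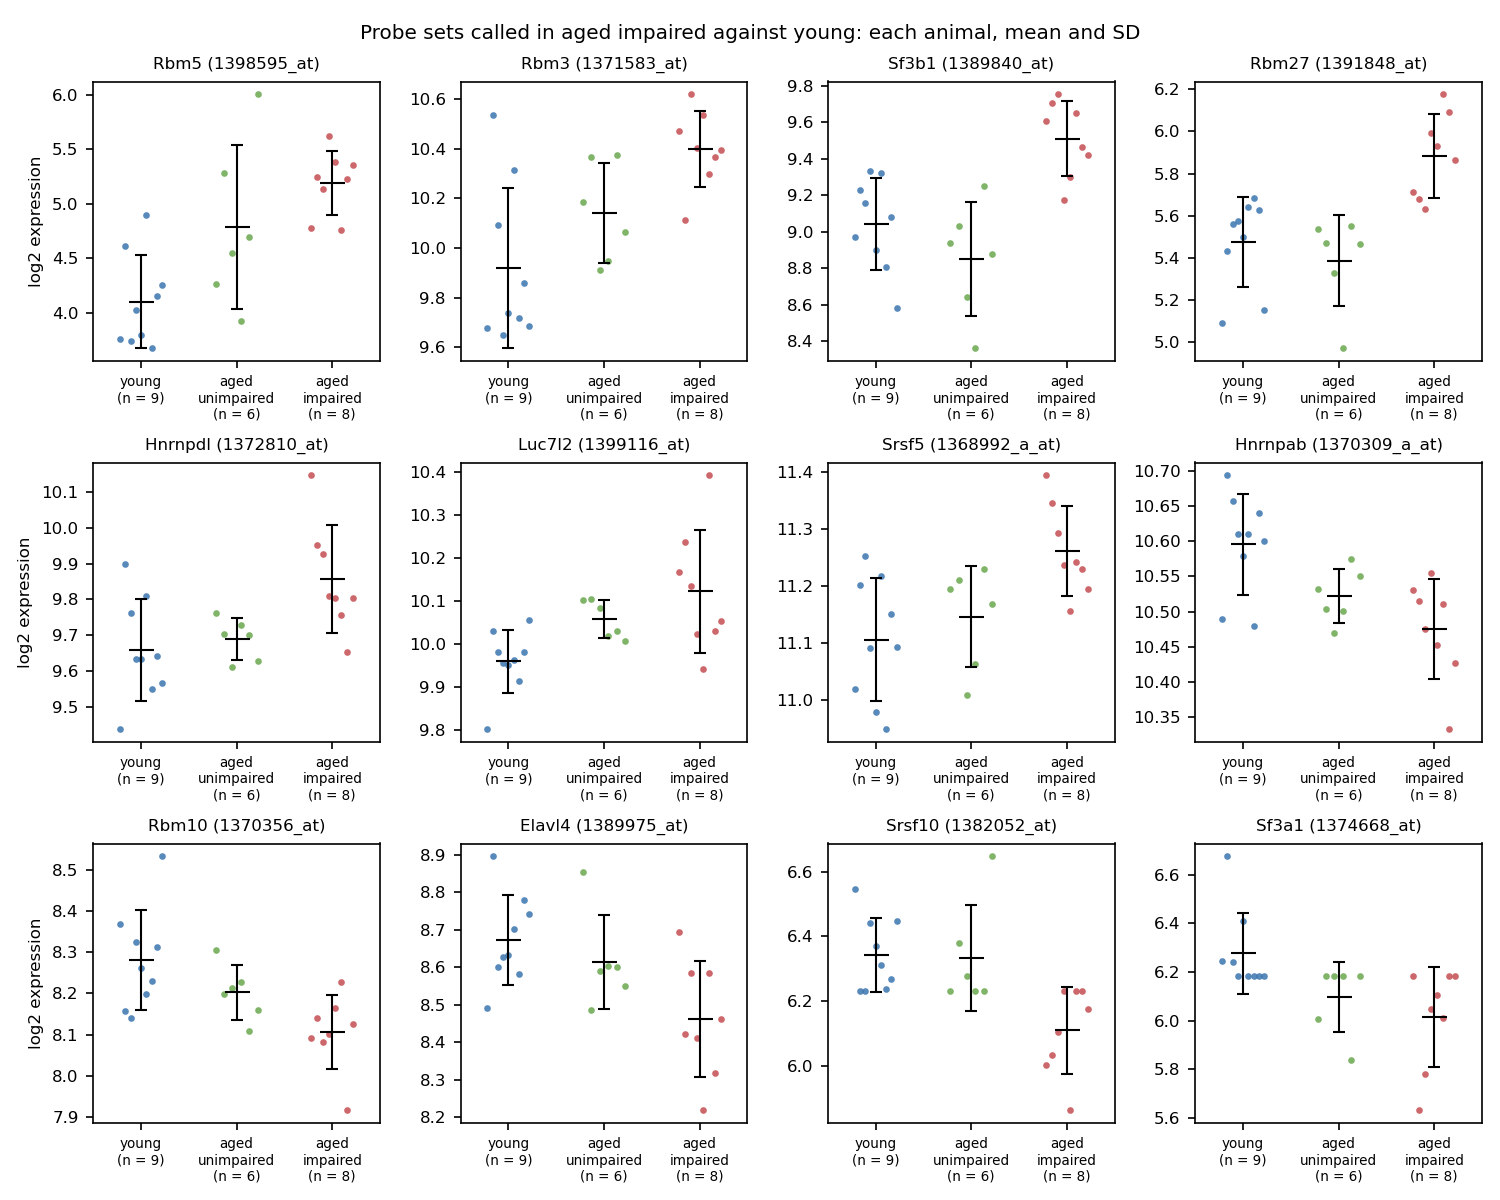
Each dot is 1 animal's log2 expression for the 12 probe sets that changed between aged impaired and young rats, and bars are the group mean and SD. Axes differ between panels and do not start at 0. For Rbm27 all 8 aged impaired animals lie above the aged unimpaired range, while for Hnrnpab, Luc7l2 and Srsf5 the groups overlap.

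Between aged unimpaired and young rats 1 of the 122 tested probe sets changed, or 0.82%, against 2.06% of all tested probe sets (1.37% higher and 0.696% lower). It was 1392758_at of Tra2a, a sequence-specific splicing activator. It lay between 4.20 and 5.03 (median 4.56) in aged unimpaired, between 5.01 and 5.68 (median 5.29) in young and between 4.56 and 5.49 (median 5.23) in aged impaired rats, and 5 of 6 aged unimpaired rats lay below every young rat. The difference from young was −0.76 ± 0.14, a 1.70-fold lower level (adjusted p = 0.00612), and the call held without any 1 array. The brighter probe set of Tra2a, 1390278_at, differed by −0.11 ± 0.06 (adjusted p = 0.383). None of the 12 probe sets that changed in aged impaired rats passed here, with, for example, 0.69 ± 0.25 for the dim Rbm5 probe set (adjusted p = 0.152), 0.10 ± 0.05 for Luc7l2 (0.36) and −0.07 ± 0.04 for Hnrnpab (0.324). Aged impaired and aged unimpaired rats were both set against the same young rats.

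With both aged groups averaged, 3 of 122 passed against young (2.46%, against 6.9% of all tested probe sets, 3.34% higher and 3.56% lower). The dim Rbm5 probe set was higher by 0.89 (adjusted p = 0.0105), Rbm3 was higher by 0.35 and Tra2a 1392758_at lower, at −0.50 (adjusted p = 0.0113). The Rbm3 call ended without aged impaired 3 or 5, without aged unimpaired 1, 2 or 7 or without young 3, 4, 6, 7, 8 or 9, with an adjusted p of up to 0.082. The count was 6 without aged impaired 1 and 5 without aged impaired 2 or 4.

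Between the aged groups, which were classed by learning and share the same age range, 4 of 122 tested probe sets changed, all higher in aged impaired rats. This is 3.28%, against 0.778% of all tested probe sets (0.676% higher and 0.102% lower). They were Sf3b1 1389840_at, Luc7l3 1382957_at, Rbm27 1391848_at and Sf3b2 1377070_at, in every case the dimmer of 2 tested probe sets of the gene. Sf3b1 was higher by 0.66 ± 0.13, or 1.58-fold (adjusted p = 0.0246), and Rbm27 by 0.50 ± 0.11, or 1.41-fold (adjusted p = 0.0393), with the values by animal given above. Luc7l3, a LUC7-like protein of nuclear speckles, lay between 8.12 and 8.64 (median 8.40) in aged impaired, between 7.46 and 8.34 (median 7.86) in aged unimpaired and between 7.87 and 8.45 (median 8.08) in young rats. It was higher by 0.53 ± 0.13 (adjusted p = 0.0489). Sf3b2, a further SF3B subunit, lay between 6.36 and 6.84 (median 6.69), between 5.94 and 6.46 (median 6.26) and between 6.25 and 6.68 (median 6.33) in the same order of groups, and was higher by 0.40 ± 0.09 (adjusted p = 0.0434).

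The 4 calls were lost in several other fits. With only the aged groups fitted, or with the control gap as a covariate, 0 members and 0% of all tested probe sets passed. With that covariate the differences were 0.52 for Sf3b1, 0.50 for Rbm27, 0.34 for Luc7l3 and 0.23 for Sf3b2 (adjusted p from 0.396 to 0.48). The count was 0 without aged impaired 1, 2 or 6 or without aged unimpaired 1, 4, 6 or 8. It was 1 or 2 without aged impaired 3, 4, 7 or 8 or without young 2, 4 or 5. The adjusted p on leaving out 1 array reached 0.087 for Sf3b1, 0.111 for Rbm27, 0.125 for Sf3b2 and 0.137 for Luc7l3. No member was lower in aged impaired than in aged unimpaired rats by limma's test. Srsf10 had a difference of −0.22 ± 0.07 (adjusted p = 0.127). In all, 19 of the 122 members had an unadjusted p under 0.05, as did 2221 of all 14647 tested probe sets, a like share.

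Of the 75 tested genes, 29 had more than 1 tested probe set. For each, every other probe set was set against the brightest of the gene on the same array, which gave 47 pairs, and the gap in log2 between the 2 was compared between groups. The same was done for all 2620 such pairs in 2021 genes of the array, and p-values were adjusted over all of them. A gap shows unequal change and not which product changed, and its size within an animal has no meaning of its own.

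Between the aged groups the gap changed in 7 of 47 member pairs, or 14.9%, against 13% of all pairs, and in all 7 the dimmer probe set was higher against the brightest in aged impaired rats (10.5% of all pairs). The share of members was close to that of the array. The genes were Sf3b1 with 0.62 ± 0.13 (0.00833), Tra2a with 0.57 ± 0.14 (0.0113), Rbm27 with 0.54 ± 0.11 (0.00884), Hnrnpa2b1 with 0.50 ± 0.12 (0.0129), Luc7l3 with 0.46 ± 0.11 (0.0112), Sf3b2 with 0.41 ± 0.08 (0.00833) and Rbm15, an adaptor for RNA methylation. The dimmer Rbm15 probe set reached the minimum of 4 on 7 arrays, 4 of them aged impaired, 1 aged unimpaired and 2 young, so it was tested only through the group in which it was high. Its gap difference of 0.71 ± 0.16 (adjusted p = 0.0106) is therefore a description and no support, although the 7 of 47 includes it. None of these calls ended without any 1 array, and the count was 7 or 8 on leaving out each in turn.

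By animal, and as a description only, the Rbm15 gap lay between −3.30 and −2.07 (median −2.87) in aged impaired rats. It lay between −3.72 and −3.44 (median −3.47) in aged unimpaired and between −3.61 and −2.57 (median −3.22) in young rats. The aged groups did not overlap, which is no support for a difference, given how this probe set came to be tested. The gap of Sf3b2 did not overlap between them either, at −3.20 to −2.82 (median −2.95) against −3.75 to −3.24 (median −3.32). For Sf3b1 the gap lay between −0.71 and −0.11 (median −0.24) in aged impaired, between −1.41 and −0.54 (median −0.90) in aged unimpaired and between −1.13 and −0.41 (median −0.68) in young rats, and these ranges overlapped. Young rats lay between the aged groups in median gap for these 3 genes.

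The Hnrnpa2b1 gap, of a gene for a core hnRNP that carries messages into dendrites, lay between −2.68 and −2.32 (median −2.54) in aged impaired and between −3.31 and −2.76 (median −2.95) in aged unimpaired rats, with no overlap. The young rats lay between −3.27 and −2.28 (median −2.55), and of them only young 7, the lowest, lay within the aged unimpaired range. Its dimmer probe set 1395561_at alone did not pass, with 0.44 ± 0.12 between the aged groups (adjusted p = 0.0751). The same held for Tra2a 1392758_at, with 0.53 ± 0.14 (adjusted p = 0.0763), and for Rbm15 1395129_at, whose level was near the minimum, with means of 4.23, 3.83 and 3.96 in aged impaired, aged unimpaired and young rats. The brightest probe sets of the 7 genes differed between the aged groups by −0.31 (Rbm15) to 0.07 (Luc7l3), and none passed.

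**Figure D3:**
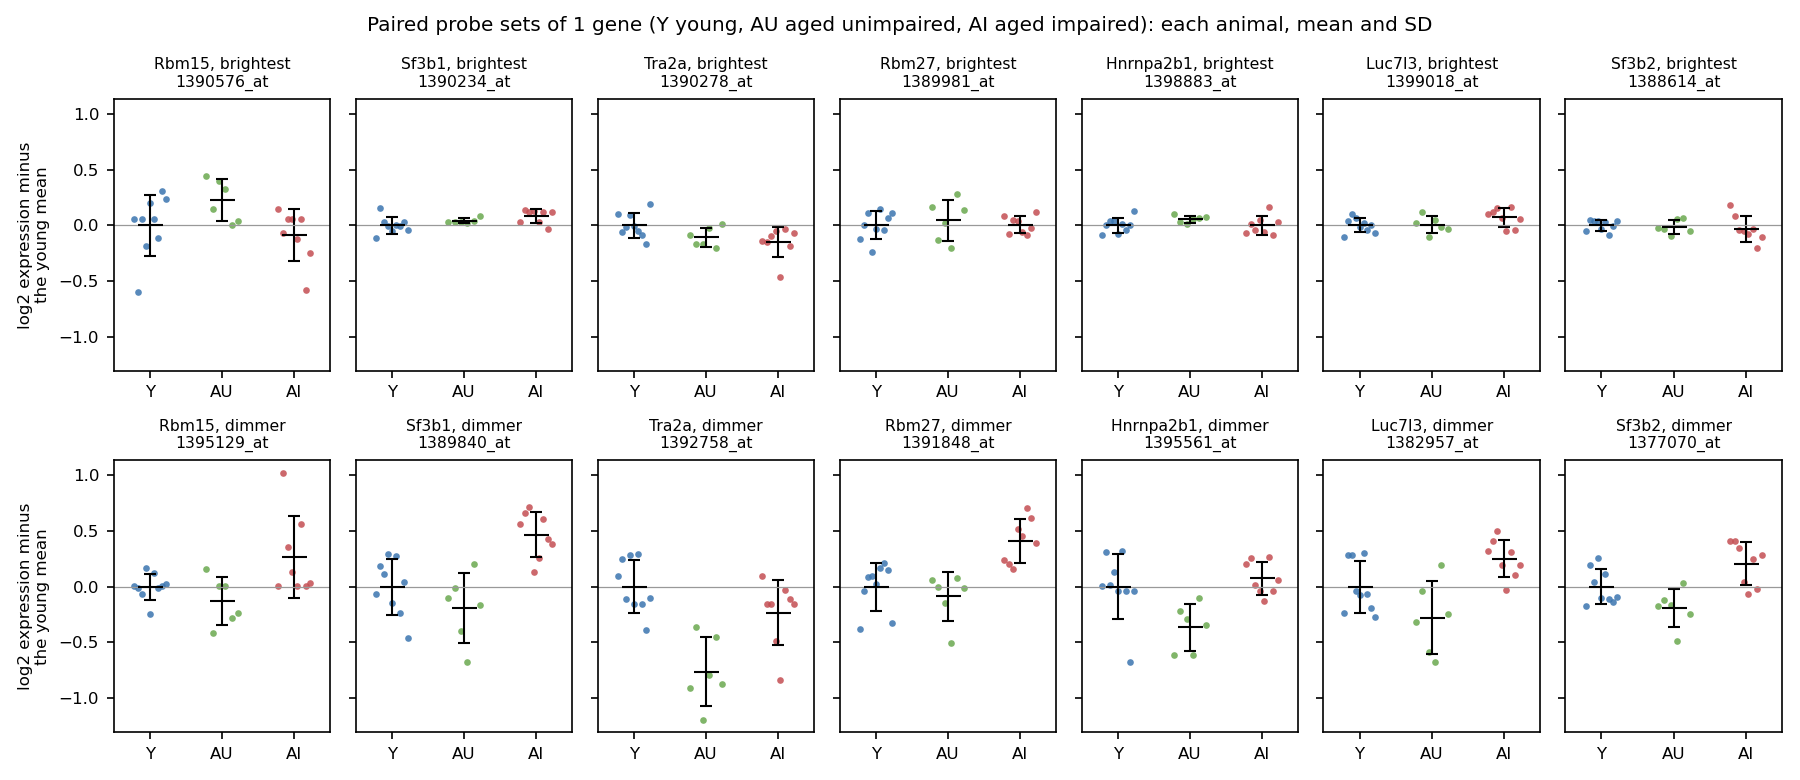
The 7 genes whose gap differed between the aged groups are in columns, with the brightest probe set above and the other below. Each dot is 1 animal's log2 value minus the young mean of that probe set, and bars are the group mean and SD. In the lower row the aged impaired group lies above the aged unimpaired group in all 7, while in the upper row the aged groups differ by −0.31 (Rbm15) to 0.07 (Luc7l3). The lower Rbm15 probe set was tested only through the group in which it was high.

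As a further measure of the arrays, the gap between 2 control rows of the array, named for the 5′ part and the middle of GAPDH, was computed. Across the 23 arrays these rows correlated more closely with the 2 probe sets shared by Actb and Actg1 (r from 0.61 to 0.93) than with the one shared by Gapdh (0.485 and 0.377), so their names may not hold, and what the gap measures is not known. The gap was 2.14 ± 0.0886 (SD, n = 8) in aged impaired, 2.28 ± 0.0891 (n = 6) in aged unimpaired and 2.22 ± 0.103 (n = 9) in young rats. It ranged from 2.02 to 2.27, from 2.12 to 2.39 and from 2.08 to 2.46, so the groups overlapped. Aged impaired were below aged unimpaired rats by 0.14 (two-sided exact permutation p = 0.0153, and 0.168 after adjustment over 11 measures). With this gap as a covariate, 0 of the 47 member pairs and 0.0382% of all pairs passed between the aged groups. The differences were then 0.63 for Rbm15 (adjusted p = 0.227), 0.48 for Sf3b1 (0.227), 0.42 for Tra2a (0.264), 0.56 for Rbm27 (0.203), 0.26 for Hnrnpa2b1 (0.31), 0.30 for Luc7l3 (0.275) and 0.31 for Sf3b2 (0.227). These values compare with 0.71, 0.62, 0.57, 0.54, 0.50, 0.46 and 0.41 without the covariate, so those of Hnrnpa2b1 and Luc7l3 were over 1.5 times smaller with it. The part of this gap in the results was not tested further.

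Against young rats few gaps changed. Between aged impaired and young rats 1 of 47 passed, against 2.1% of all pairs (1.41% with the other probe set higher): Rbm27, with 0.41 ± 0.10 (adjusted p = 0.0406). The call ended without 12 of the 23 arrays (aged impaired 2, 4, 6 or 7, aged unimpaired 8, or young 1, 2, 4, 6, 7, 8 or 9), with an adjusted p of up to 0.0715. Between aged unimpaired and young rats 1 of 47 passed, against 0.305% of all pairs (0.267% with the other probe set lower): Tra2a, with −0.65 ± 0.13 (adjusted p = 0.0437). This call ended without 15 arrays (aged impaired 1, 2, 3, 5, 6 or 8, aged unimpaired 1, 4, 6 or 8, or young 1 to 5), with an adjusted p of up to 0.111. Of the 2 counts, the first ran from 0 to 3 and the second from 0 to 3 on leaving out 1 array each. With both aged groups averaged, 0 of 47 passed in limma's test, against 0.267% of all pairs. An unadjusted p under 0.05 was found for 6 of the 47, and for 347 of all 2620 pairs.

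The sign of the difference often disagreed between probe sets of a gene. In aged impaired against young rats the 2 members of a pair had opposite signs in 21 of 47 pairs (44.7%, against 37.3% of all pairs), and between the aged groups in 25 of 47 (53.2%, against 47%). The genes with the widest spread over their probe sets in aged impaired against young rats were Rbm5 (1.17 between the highest and the lowest log2 difference), Rbm26 (0.50), Rbm27 (0.41), Sf3b1 (0.39) and Rbm15 (0.35). Of these, the gap between probe sets passed the test against young for Rbm27 and missed it for the others, with adjusted p from 0.0645 (Sf3b1) to 0.361 (Rbm26). One Rbm26 probe set, 1394756_at, reached the minimum on 6 arrays, 4 of them aged impaired, as did the dim Rbm15 probe set on 7.

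**Figure D4:**
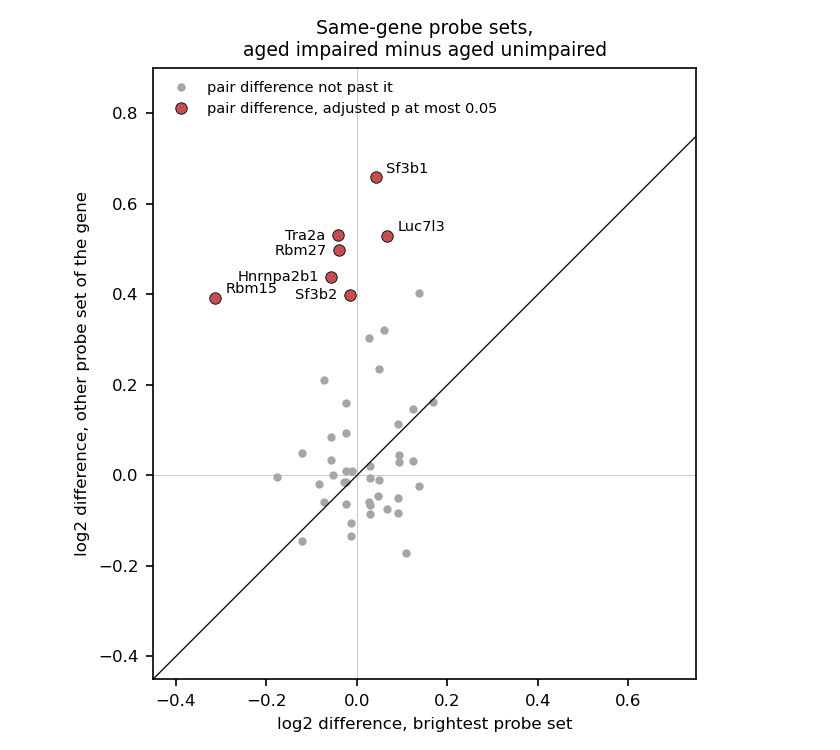
Each point is 1 of the 47 pairs, with the log2 difference between aged impaired and aged unimpaired rats of the gene's brightest probe set on the horizontal axis and of its other probe set on the vertical axis. On the diagonal both move equally. The 7 red points passed the pair test and lie above the diagonal, at 0.39 to 0.66 on the vertical axis.

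Other genes of RNA processing were read from 5 lists of 167 symbols, each gene by its brightest probe set, of which 140 were tested. Between aged impaired and young rats 3 rose and 4 fell (5%, against 9.76% of all tested probe sets). Srrm2, a scaffold of nuclear speckles, lay between 11.00 and 11.43 (median 11.18) in aged impaired, between 9.92 and 11.06 (median 10.64) in aged unimpaired and between 10.42 and 10.90 (median 10.70) in young rats. All 8 aged impaired rats lay above the young range. It was higher by 0.57 ± 0.12 than in young (adjusted p = 0.00716) and by 0.70 than in aged unimpaired rats (adjusted p = 0.0238). The call against young held under every alternative run. The call between the aged groups ended with no filter on low values (adjusted p = 0.0886), with only the aged groups (0.099), with the control gap (0.423) and without aged impaired 2 or aged unimpaired 1, 4, 6 or 8 (up to 0.077). It also ended with the replicate number as a block (0.0912) and without aged impaired 1 and 2 together (0.08). It was the 1 call of the 140 between the aged groups, or 0.714%, against 0.778% of all tested probe sets. Ptbp1, which represses neuronal exons and is low in neurons, was higher than in young by 0.26 (adjusted p = 0.015), and Msi2, a Musashi protein, by 0.20 (0.0495). The Msi2 call held without aged impaired 4, 5 or 7 or without young 1 and ended without any other array.

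The 4 falls were Prpf3, of the U4/U6 particle, at −0.31 (adjusted p = 0.0149), Sfpq, a paraspeckle protein, at −0.30 (0.0194), the RNA-editing enzyme Adarb1 at −0.19 (0.013) and the neuronal splicing regulator Rbfox1 at −0.13 (0.023). Rbfox1 lay between 11.86 and 12.00 (median 11.90) in aged impaired and between 11.96 and 12.20 (median 12.00) in young rats. Its call ended with quantile normalization (adjusted p = 0.0725), with centred arrays (0.0577) and with the control gap (0.0666). Without aged impaired 1 and 2 together, Rbfox1 (0.0546) and Sfpq (0.0509) did not pass. Prpf3 did not pass with the control gap (0.0502) or with the replicate number as a block (0.059). The Adarb1 call held under every alternative run. By list, 0 of 22 core particle proteins passed between aged impaired and young rats in limma's test (3 had an unadjusted p under 0.05), as did 0 of 11 kinases and phosphatase regulators of SR proteins, 1 higher and 1 lower of 46 other spliceosome factors, 1 higher and 2 lower of 26 neuronal and tissue regulators, and 1 higher and 1 lower of 35 other RNA-binding proteins. Between aged unimpaired and young rats 0 of the 140 passed in limma's test, against 2.06% of all tested probe sets. An unadjusted p under 0.05 was found for 11 of the 140, and for 2456 of all 14647 tested probe sets. With both aged groups averaged, Prpf3 and Sfpq passed, both lower than in young rats (1.43% of the 140, against 6.9% of all). The first of these calls ended without young 7 or 8, and the second without aged impaired 2, 3 or 7, aged unimpaired 1, 4 or 7, or young 1, 2, 3, 4, 8 or 9. Both also ended with no filter on low values or with the replicate number as a block. The second ended without aged impaired 1 and 2 together as well.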

How the data were processed

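RNA of dissected CA3 was hybridised to Affymetrix whole-genome rat arrays, 1 per animal, per the labels' protocols. The deposited values are log2 expression from GCRMA, per the submitters' processing notes, which corrects background by probe sequence, equalises array distributions and summarises each probe set. Its version is not given in the sources used here. Differences shared by most probe sets are thereby removed, and dim values are compressed. Arrays give no read depth, so the number of animals limits precision. The labels give no batch, and 57 control rows were left out.

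The members, gene lists and tests were chosen with earlier results of these data known. Where 6 or more arrays had log2 values of 4 or more, the probe set entered limma 3.58.1 in R 4.3.3 (lmFit and eBayes, 1 mean per group, 20 residual and 2.35 prior degrees of freedom, Benjamini-Hochberg, called at an adjusted p of at most 0.05). Same-gene gaps were fitted likewise over 2620 pairs (3.54 prior degrees of freedom). Code was tested on simulated data. Marker scores were compared by exact permutation tests in SciPy 1.17.1.

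Genes were named by a rule that covers called members (up to 10 per direction and comparison), called pairs, the 10 genes with the widest spread between probe sets, and a list of family members, in all 78 probe sets in 55 genes, not all of which are described. Other genes named come from the 5 lists. Names follow the platform annotation, and all 86 symbols matched the GRCr8 gene table with 0 changed. Scanner files were not analysed here. Replicate numbers name different animals and are not pairs. Fits with other filters, scalings, weights, blocks and fewer arrays were run as alternatives.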

Additional observations from a re-analysis of the deposited data

Results flagged for a closer look

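In 29 of 234 groups of arrays tested, over the named probe sets, 1 animal lay far from the rest of its group by Dixon's test, or 12.4%, where chance gives about 1 in 20. Ties on many arrays narrow a group's range, as for Hnrnpm, Rbm17 and Rbm26. Among neuronal regulators, Celf1 was 10.42 in young 4 (others 10.57 to 10.67). Celf2 was 8.7 in aged unimpaired 6 (1388195_at, others 8.47 to 8.5), 8.63 in aged unimpaired 8 (1387880_at, others 8.24 to 8.36) and 6.11 in young 7 (1387879_a_at, others 6.52 to 6.9). Celf3 was 7.14 in aged unimpaired 4 (others 7.34 to 7.42), Elavl2 10.78 in young 7 (others 10.38 to 10.57) and Elavl4 8.85 in aged unimpaired 1 (others 8.49 to 8.6).

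Among hnRNP and RBM genes, Hnrnpa2b1 was 8.15 in young 7 (1395561_at, others 8.79 to 9.15) and Hnrnpm 8.0 in aged unimpaired 6 (others all 7.91). Rbm10 was 7.92 and Rbm8a 9.32 in aged impaired 7 (others 8.08 to 8.23 and 9.55 to 9.71). Rbm14 was 7.18 in young 2 (others 7.37 to 7.51), Rbm25 8.55 in aged unimpaired 4 (others 8.33 to 8.41) and Rbmx 8.01 in aged unimpaired 1 (others 8.34 to 8.4). Rbm17 was 5.89 in aged unimpaired 1 (1396185_at, others all 5.8) and 4.97 in aged impaired 1 (1396401_at, others 3.96 to 4.29). Rbm26 1393678_at was 4.97 in aged impaired 6 (others 5.43 to 5.55), 5.54 in aged unimpaired 2 (others 5.42 to 5.46) and 5.66 in young 3 (others 5.41 to 5.46), and 1394756_at was 4.53 in young 1 (others 3.37 to 3.82).

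Among SF3, SR and Tra2 genes, Sf3a1 was 6.68 and Sf3a3 6.95 in young 1 (others 6.18 to 6.41 and 6.51 to 6.71). Sf3b1 1390234_at was 9.83 in aged unimpaired 8 (others 9.77 to 9.79), Sf3b3 7.22 in young 5 (others 7.52 to 7.76) and Sf3b4 8.81 in aged impaired 4 (others 8.91 to 9.0). Srsf10 was 6.65 in aged unimpaired 8 (others 6.23 to 6.38), Srsf4 8.49 in young 6 (others 8.14 to 8.29), Srsf9 6.57 in aged impaired 3 (others 6.75 to 6.8) and Tra2a 1390278_at 8.63 in aged impaired 5 (others 8.91 to 9.06).

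The differences from young rats were unequal in the aged groups, by limma's test of aged impaired against aged unimpaired, for 4 probe sets: Luc7l3 by 0.53, Rbm27 by 0.5, Sf3b1 by 0.66 and Sf3b2 by 0.4. They were unequal for the gap between 2 probe sets in 7 genes: Hnrnpa2b1 by 0.5, Luc7l3 by 0.46, Rbm15 by 0.71, Rbm27 by 0.54, Sf3b1 by 0.62, Sf3b2 by 0.41 and Tra2a by 0.57. The Rbm15 value is a description only, as stated above.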

How the results depend on the processing

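Members called between aged impaired and young rats numbered 12, and 5 with no filter on low values, 6 with only these groups fitted, 5 with the control gap as a covariate and 7 with the replicate number as a block, while the share of all tested probe sets went from 9.76% to 2.47%, 7.73%, 6.4% and 5.94% (7 to 13 without 1 array). Between aged unimpaired and young rats the count of 1 became 0 with a minimum of 6 and 2 with array weights (all: 2.06%, 2.61% and 4.59%). It was 1 to 2 without 1 array. At a minimum of 6 the dimmer probe sets of Tra2a, Rbm27 and Rbm15 and the dim one of Rbm5 were no longer tested. Calls on them therefore left the counts, of probe sets and of the pairs below, through the filter and not through a fit. Between the aged groups the 4 calls became 0 with no filter, with only these groups, with the gap, with the block and without aged impaired 1 and 2 together, and at most 0.00644% of all probe sets passed in the first 4 of these fits (0 to 6 without 1 array). With both aged groups averaged the 3 calls became 8 with quantile normalization or arrays centred on their medians, 7 with array weights (all: 6.9%, then 8.85%, 7.69% and 10%) and 6 without aged impaired 1 and 2 (2 to 6 without 1 array). Pairs called between aged impaired and young rats numbered 1, and 4 with no filter, 2 with only these groups, and 0 with a minimum of 6, quantile normalization, the gap or the block (0 to 3 without 1 array). Between aged unimpaired and young rats the 1 pair became 2 with array weights and 0 with a minimum of 6, only these groups, the gap, the block or without aged impaired 1 and 2 (0 to 3 without 1 array). Between the aged groups the 7 pairs became 4 with a minimum of 6 and 0 with the gap (all: 13%, then 17% and 0.0382%). With the block they again numbered 7, but not the same 7, since Hnrnpa2b1 lost its call there (limma adjusted p = 0.0614). Removals by the filter apart, the cause of these changes was not tested. Replicate numbers did not pair the animals: 2 of 20 same-number pairs correlated above 0.1 in their deviations (median −0.0113), and 3 of 23 arrays were best matched by their own number. Over 963 alternatives of 29 single results, 731 kept the call, 232 lost it and 0 turned direction. Rbm3 and Rbm5 in aged impaired and Tra2a in aged unimpaired rats, each against young, kept the call under all alternatives run. For Rbm5 and Tra2a these do not include the minimum of 6, at which their called probe sets were not tested. Dim probe sets near the minimum, such as that of Rbm15, are limited by signal over background.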
